A study of Mus musculus with 419 samples.

Results

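The genes described here encode the machinery that licenses, starts and carries out DNA replication. They were chosen by symbol, with earlier results of these data known. Each was followed through every annotated transcript of the GENCODE vM21 catalogue in single G1 cells. All 39 listed genes were measured, through 206 annotated transcript rows of which 205 held a value above 0, out of 35126 annotated genes with a value. By role they comprise 12 licensing genes, 6 genes of helicase activation, 16 of DNA synthesis, 3 of nucleotide supply and 2 others, spread over 13 autosomes. The cells are 419 mouse embryonic stem cells of the female F1 hybrid line F1-21.6 (129Sv-Cast/EiJ). By the cross each autosome should have 1 copy from strain 129 and 1 from CAST, and the copies in single cells were not tested. The cells were grown on Laminin-511 without feeder cells, in medium with serum and the cytokine LIF. From each cell 1 total RNA library was made by RamDA-seq, which reads the full length of transcripts. The labels give a single group of cells, of 1 line, with no treatment, no cells of another phase and no separate cultures, and they do not say how G1 cells were selected. The 419 cells therefore count as 1 sample: no p-value was made from them, and the spread given is over cells or over the 5 sequencing lanes (80 to 88 cells each), which may be technical.

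Replication is prepared and executed in separate steps. In G1 the origin recognition complex, with Cdc6 and Cdt1, loads the ring-shaped Mcm2-7 helicase onto DNA in an inactive form, which is called licensing. At the start of S phase Cdc45 and the GINS complex join the ring and switch it on, and polymerases, the clamp Pcna with its loader RFC, and the single-strand binding complex RPA then synthesise DNA. Many of these genes are transcribed under E2F factors towards the end of G1, and embryonic stem cells are known for a short G1 phase.

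Words bound by E2F factors were looked for in the promoters. RefSeq windows (GRCm38.p6) of 300 bases, running from 250 bases before the start of a gene to 50 after it, were found for 32 of the 39 genes. They were searched on both strands for 4 E2F words, TTTCCCGC, TTTCGCGC, TTTGCCGC and TTTGGCGC, which can overlap each other on opposite strands. At least 1 word was present in the windows of 11 of the 32 genes: Mcm3, Mcm5, Mcm6, Mcm7, Orc1, Cdc6, Cdt1, Gins3, Rfc3, Pold1 and Lig1. By window the share was 28.9% of 38, against 2.26% of all 32851 promoter windows. The stretches below are those of the 2 helicase genes with a word before the start that covaried most with the other replication genes, and of 2 loading factors, with the E2F words in capitals and all letters in the direction of the gene. They lie at chr1:128359706-128359955, minus strand (Mcm6), chr8:75109259-75109508, plus strand (Mcm5), chr11:98908002-98908031, plus strand (Cdc6) and chr4:108579416-108579445, plus strand (Orc1).
Mcm6: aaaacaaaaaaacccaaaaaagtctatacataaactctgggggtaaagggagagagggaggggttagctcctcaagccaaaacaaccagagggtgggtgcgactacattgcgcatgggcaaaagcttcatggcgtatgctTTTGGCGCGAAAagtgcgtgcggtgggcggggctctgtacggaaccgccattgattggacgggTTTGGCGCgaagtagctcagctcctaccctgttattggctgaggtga
Mcm5: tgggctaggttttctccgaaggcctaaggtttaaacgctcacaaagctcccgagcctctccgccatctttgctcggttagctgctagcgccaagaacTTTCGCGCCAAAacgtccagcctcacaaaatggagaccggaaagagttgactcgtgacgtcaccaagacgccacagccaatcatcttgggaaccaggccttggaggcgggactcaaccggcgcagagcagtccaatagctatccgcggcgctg
Cdc6: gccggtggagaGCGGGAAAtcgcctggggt
Orc1: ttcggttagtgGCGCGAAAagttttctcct
In Mcm6 a pair of words overlapped 110 and 106 bases before the start, and another lay 47 bases before it. In Mcm5 the overlapping pair began 153 and 149 bases before the start. The CCAAT word was in 63.2% of the 38 windows (37.4% of all windows), and the word TTTGAA, found in promoters of mitotic genes, in 13.2% (17.9% of all). A match describes letters only. The RefSeq start lay within 100 bases of the start of the measured transcript in 26 of the 32 genes.

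The scaled total per cell over both alleles ran from 698363 to 1477656, with a median of 925852, and between 18495 and 32760 transcript rows were above 0; the depth in reads is unknown. No index pair was shared within a lane and no cell repeated the values of another. The label of embryonic stem cell was checked with 8 pluripotency markers, which summed to a median of 2495. In 19 cells they summed to less than 20% of that median, from 3.76 to 412, and these cells came from all 5 lanes. Fibroblast markers, of which 1 of 8 passed the minimum level, summed to between 1.88 and 2558 in the 19 cells and to between 0 and 155 in the other 400. Of the other 7 on that list, which were under the minimum, Lum was above 0 in 1 cell, Dcn in 8, Col3a1 in 10, Col1a2 in 56, Pdgfrb in 77, Postn in 220 and Thy1 in 258 of all cells. Trophectoderm markers, of which 1 of 6 (Krt7) passed the minimum level, reached a sum of 669 in the 19 cells and 303 in the others. Primitive endoderm markers, of which 0 of 6 passed it, reached 139 in the 19 cells and 65.6 in the others. The part of these cells in the results was measured by leaving them out, and those values stand beside the results.

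Licensing genes had the highest median level of the 5 roles, by their leading rows. Levels were compared between genes per 1000 bases of the most abundant transcript row (per kb, in the scaled units of the authors, both alleles summed). The median was 73.9 per kb over the 12 licensing genes, 29.4 over the 16 synthesis genes and 13.7 over the 6 genes of helicase activation, and 28.0 over all 39. Licensing genes were thus at 2.52 times the synthesis genes by their medians. With all rows of each gene summed the ratio was 1.65, and from protein-coding rows alone 2.32. All rows summed also gave a median of 59.5 over the 39 genes and changed the order of roles: Ung and Slbp had a median of 79.9, above the licensing genes at 75.1. The 6 licensing genes outside the ring had a median of 31.02 per kb, and the synthesis genes stood at 0.947 times that level, so the excess was that of the Mcm2-7 genes.

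**Figure D1:**
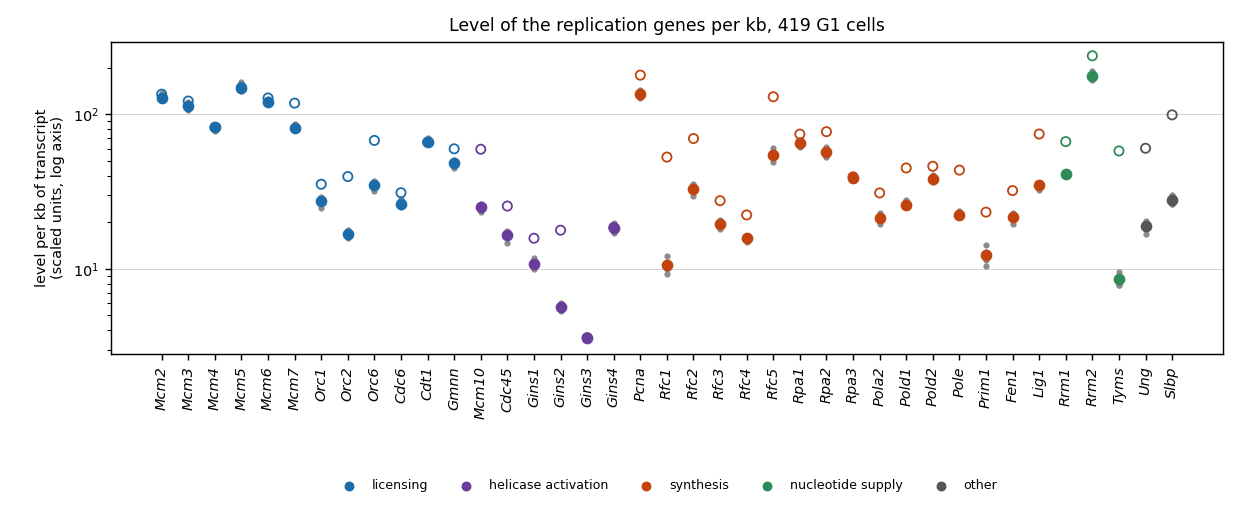
Level per kb of each replication gene (log axis, scaled units of the authors per kb). Filled points are the most abundant row over 419 cells, grey points the same in each of the 5 lanes, open circles all annotated rows summed, and colours give the role. The Mcm2-7 genes lie between 81.7 and 149 per kb, and Rrm2 is highest at 178.

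The 6 subunits of the Mcm2-7 helicase were present at similar levels. They ran from 81.7 per kb in Mcm7 to 149 in Mcm5, 1.83-fold apart, with a median of 117. Per cell, Mcm5 held 3.76 in the lowest, 506 in the median and 995 in the highest cell, with a mean of 505 ± 26.7 (SD over 5 lanes). Mcm2 held 40.5, 446 and 735, and Mcm7, the lowest of the ring, 9.02, 245.1 and 476. All 6 were above 0 in all 419 cells, with coefficients of variation over cells between 24.5% and 28.1%, the narrow end of the 39 genes (24.5% to 84.0%). Mcm7 shares 26.0% of its row with other genes, so its level is uncertain.

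The factors that load the ring were lower. Among the subunits of the origin recognition complex, Orc6 stood at 34.7 per kb by its leading row. Orc1, which is regulated through the cell cycle, was at 27.3 and Orc2 at 16.7. With all rows summed Orc6 was at 67.9, Orc2 at 39.6 and Orc1 at 35.3, so the last 2 changed places. Cdc6, the loading ATPase, had a level of 26.4 per kb, with 0 in the lowest, 67.4 in the median and 171 in the highest cell. Cdt1, which brings the ring to origins, had 66.1 per kb, with 5.65, 147 and 270 per cell. Gmnn, whose product geminin inhibits Cdt1, had 48.5 per kb, with 1.12, 46.9 and 100.1 per cell, so its transcript was above 0 in all cells. Geminin protein is known to be degraded in G1, and these data hold transcripts only.

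The genes that activate the helicase were the lowest group. By leading rows the 4 GINS genes ran from 3.58 per kb in Gins3, the lowest of all 39 genes, to 18.5 in Gins4. Between them lay Gins2 at 5.68 and Gins1 at 10.8. Cdc45, which completes the active helicase, was at 16.6 per kb, and Mcm10, an origin firing factor, was the highest of the group at 25.0. Even so, Gins3 was above 0 in 403 of 419 cells, with 0 in the lowest, 8.28 in the median and 30.1 in the highest cell. The leading Gins2 row is a retained-intron transcript with 67.6% of the values of that gene. With all rows summed Gins2 was at 17.8 per kb, above Gins1 at 15.8. From protein-coding rows alone Gins2 was at 1.11, below Gins3 at 3.58.

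Among the synthesis genes the sliding clamp stood apart. Pcna had 135 per kb, with 6.83 in the lowest, 207 in the median and 398 in the highest cell, and was the single synthesis gene within the range of the Mcm2-7 genes by leading rows; 31.8% of its row is shared with other genes, which makes its level uncertain. The RPA subunits were at 65.2 (Rpa1), 56.9 (Rpa2) and 38.9 (Rpa3) per kb, 1.68-fold apart. The clamp loader was less even, from 10.6 per kb in Rfc1 to 54.8 in Rfc5, 5.15-fold apart, with Rfc3 at 19.5, Rfc4 at 15.8 and Rfc2 at 32.9. With all rows summed the order changed: Rfc4 was lowest at 22.3, Rfc1 stood at 52.9 and Rfc5 was at 130.2 per kb, 5.83-fold apart. Among the polymerase genes, Pold2, an accessory subunit of polymerase delta, had 38.1 per kb, its catalytic subunit Pold1 25.9, the polymerase epsilon catalytic subunit Pole 22.5 and the polymerase alpha subunit Pola2 21.4. Prim1, the catalytic primase subunit, was at 12.3 per kb. Its leading row was above 0 in 273 of 419 cells (65.2%), the fewest among the leading rows, and any row of the gene in 417 cells. The flap nuclease Fen1 and the ligase Lig1, which finish lagging-strand pieces, were at 21.7 and 34.9 per kb.

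Nucleotide supply was uneven. Rrm2, the regulated subunit of ribonucleotide reductase, had the highest level of the 39 genes at 178 per kb, with 2.26 in the lowest, 384.3 in the median and 845 in the highest cell. Its partner Rrm1 was at 41.0 per kb, and its lowest cell still held 34.1 against a median of 161.3. Tyms, thymidylate synthase, was at 8.55 per kb in its leading row and at 58.0 with all rows summed. Ung, the uracil glycosylase, and Slbp, which binds the stem-loop of histone messages, were at 18.8 and 28.0 per kb, or 60.4 and 99.3 with all rows summed.

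Several synthesis and nucleotide genes were split over transcript rows. The leading row held under 50% of the values of the gene in 6 of the 39: Rfc1, Rfc2, Prim1, Tyms, Ung and Slbp. It was not protein-coding in 4: Gins2 and Rfc2 (retained intron), Lig1 (processed transcript) and Tyms (nonsense-mediated decay). Rows of a gene could run against each other from cell to cell: Spearman's rho over 419 cells was -0.644 between the leading row of Prim1 and its next, and -0.513 in Fen1. How the authors' estimates divided reads among overlapping rows was not tested. The Mcm2-7 genes were little touched, since their leading rows held 86.8% to 100% of the gene.

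Both alleles of most replication genes were read about equally. The 129 share was the 129 value over both alleles, pooled over cells. Gins3 held nearly the same value in both tables in 96.8% of the cells where it was above 0 and so has no allele information. Over the other 38 the median share was 50.8%, against 50.0% over all 10465 genes with allele information. A share below 40% or above 60% was found in 5 of 38 members (13.2%), against a background of 23.4% of all such genes. The ring was close to even: Mcm2, Mcm3, Mcm6 and Mcm7 lay between 49.6% and 50.0%, Mcm4 at 47.1% ± 0.919 (SD over 5 lanes) and Mcm5 at 56.8% ± 0.785. Mcm5 was above 50% in all 5 lanes, from 56.1% to 57.8%.

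**Figure D2:**
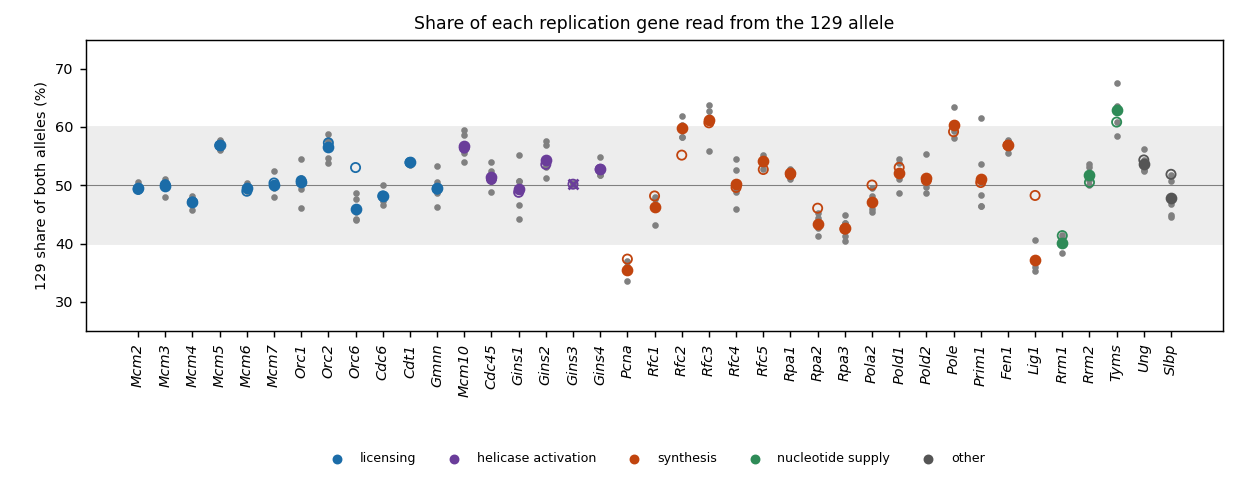
Share of each gene read from the 129 allele (percent of both alleles). Filled points are the leading row over 419 cells, grey points the 5 lanes, open circles all rows summed, the shaded band 40% to 60%, and the cross is Gins3, which has no allele information. Pcna at 35.5% and Lig1 at 37.1% lie below the band, and Lig1 returns to 48.2% when rows are summed.

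Of the 5 genes outside the band, Pcna was the one outside it in every lane. It held a mean of 72.9 per cell from 129 and 132 from CAST, a share of 35.5% ± 1.29 (lanes 33.5% to 36.9%), and 37.3% with all rows summed. Its shared sequence leaves this share uncertain. Lig1 was at 37.1% in its leading row but at 48.2% over all rows, where the main protein-coding row was at 86.0%. Tyms was at 62.9% ± 3.36, Rfc3 at 61.1% ± 3.06 and Pole at 60.4% ± 2.04, each crossing 60% between lanes. Just inside the band lay Rrm1 at 40.2% (38.4% to 41.4% over lanes) and Rfc2 at 59.8% (55.2% with all rows). The lowest and highest licensing genes were Orc6 at 46.0% and Mcm5, and those of helicase activation Gins1 at 49.4% and Mcm10 at 56.7%. Ung was at 53.7% and Slbp at 47.8%.

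The alleles of the helicase genes differed little within a cell. Intrinsic noise was taken as the mean squared difference between the alleles of a cell, each divided by its own mean, over 2. Since it falls with level, a residual was used, the log2 distance from the running median of genes of like level. The median residual over 38 members was -0.43, and 27 of 38 were below 0 (71.1%; 49.8% of all 6028 genes measured). A residual of -0.5 or lower was found in 18 of 38 members (22.8% of all genes), and of 0.5 or higher in 6 of 38 (20.6% of all genes). All 6 Mcm2-7 genes were below 0, with a median of -0.75, from -0.94 in Mcm6 to -0.33 in Mcm5. Their intrinsic noise had a median of 0.0615 against 0.115 for all genes at 200 or more per cell. It includes capture and estimation error, and nearly equal alleles can also come from reads that carry no strain variant: the alleles of Mcm2 were alike within 10% in 53.2% of cells.

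**Figure D3:**
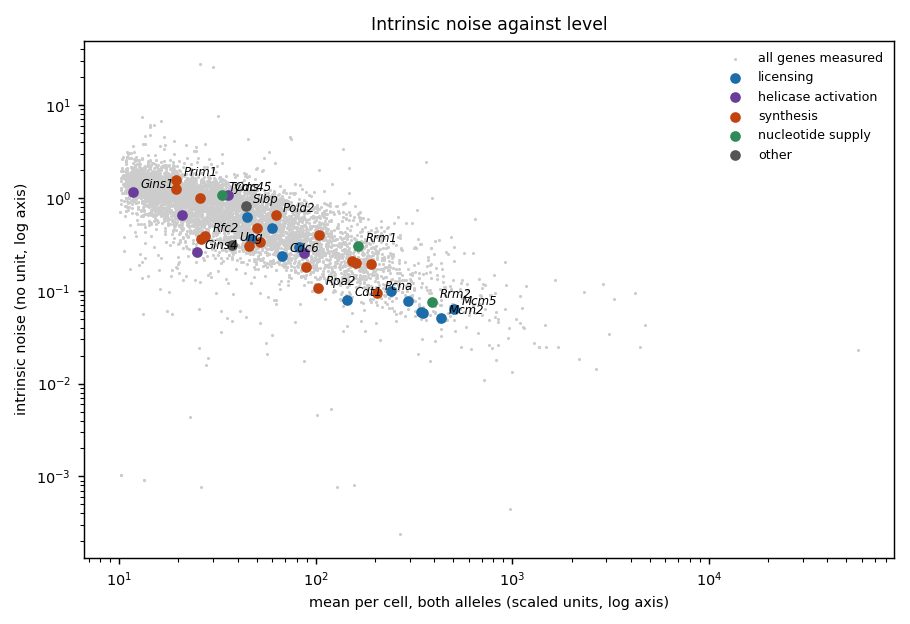
Intrinsic noise (no unit) against mean level per cell over both alleles (scaled units), both on log axes, for 6028 genes in grey and 38 replication genes coloured by role. The Mcm2-7 genes sit at the lower right, and Cdc45, Prim1, Tyms, Pold2, Rrm1 and Slbp lie above most genes of like level.

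Outside the ring the residuals spread widely. The lowest were those of Gins4 (-1.80), Rpa2 (-1.67), Cdt1 (-1.49), Rpa3 (-1.22), Rfc2 (-1.18) and Ung (-1.10). The highest were those of Cdc45 (0.61), Prim1 (0.57), Tyms (0.56), Pold2 (0.54), Rrm1 (0.53) and Slbp (0.50). For Rfc2, Ung, Prim1, Tyms and Slbp the residual is that of a leading row with under 50% of the gene. Among the licensing genes the highest was Orc6 at 0.13, and the group median was -0.68, against -0.14 for the synthesis genes. Partners could differ: in ribonucleotide reductase Rrm2 was at -0.42 and Rrm1 at 0.53, and in polymerase delta Pold1 was at -0.91 and Pold2 at 0.54. Cells in which Cdc45 was above 0 showed 1 allele alone in 29.2% of cases, near the median of 29.4% for genes between 20 and 50 per cell. For Gins1 it was 48.6%, near the 45.4% of genes under 20, and for the Mcm2-7 genes at most 1.43%, with a median of 0.716% for genes at 200 or more.

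Noise shared by both alleles was small. It is the covariance of the alleles over cells, once each is divided by its mean. Its median over 38 members was 0.00547, against -0.0262 over all genes measured, and it was above 0 in 20 of 38 (42.9% of all genes). The members' median was -0.0118 without the 19 cells low in pluripotency markers, and -0.00441 over all cells without genes that share sequence. Its sign thus changed with these choices. The 6 Mcm2-7 genes were all above 0 over all cells, with a median of 0.0397, against 0.0283 for all genes at 200 or more per cell. The rank correlation of the 2 alleles over cells was highest for Rrm2 (0.463), Ung (0.428) and Mcm6 (0.396), and lowest for Gins1 (-0.441) and Pold2 (-0.419). The median of this correlation was 0.00488 over the 38 members and -0.0941 over all genes measured.

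Replication genes covaried from cell to cell, with the highest values among the helicase genes. The values are Spearman's rho over 419 cells, given as a description: the cells share 1 culture label, 5 lanes and the scaling to a common total. The median rho over the 741 pairs of the 39 genes was 0.164, and 733 pairs were above 0. Over all 40522503 pairs of 9003 genes the median was 0.0109, with 5% of pairs above 0.158, and over genes at 150 or more per cell it was 0.0502. Above 0 were 55.5% of all these pairs, and 64.8% of the pairs of genes at 150 or more. The median of the members was 0.120 without the 19 cells low in markers and lay between 0.124 and 0.215 within single lanes. Taken across alleles, the 129 allele of a gene with the CAST allele of the other, it was 0.0928.

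**Figure D4:**
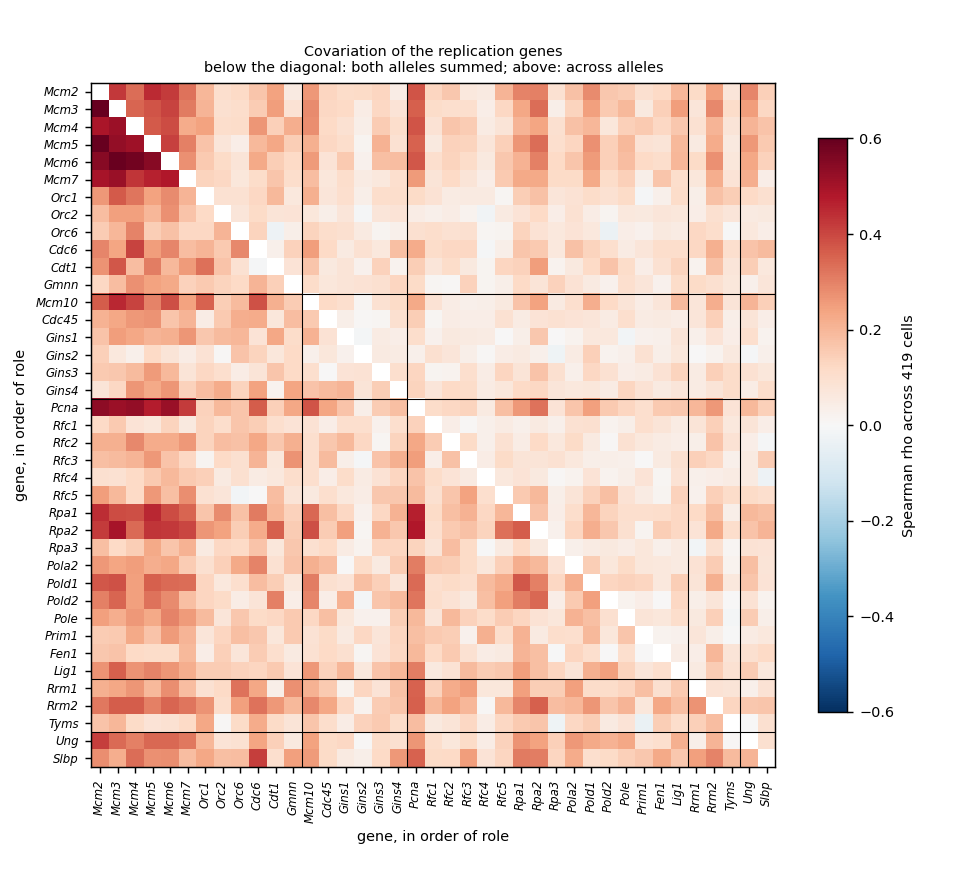
Spearman's rho over 419 cells for each pair of replication genes, ordered by role with black lines between roles. Below the diagonal both alleles are summed, and above it the 129 allele of 1 gene is set against the CAST allele of the other. The Mcm2-7 block is darkest, and Pcna, Rpa1 and Rpa2 are dark where they meet it, while Rpa3 is pale.

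Within the ring the median over 15 pairs was 0.517, 0.471 without the low marker cells and 0.366 across alleles. The closest pairs were Mcm2 with Mcm5 (0.599), Mcm2 with Mcm3 (0.597) and Mcm3 with Mcm6 (0.595), and the loosest pair of the ring was at 0.428. Pcna covaried with the ring almost as closely, with rho from 0.421 with Mcm7 to 0.539 with Mcm2. Rpa2 was looser, from 0.338 with Mcm4 to 0.493 with Mcm3. Pcna was also close to Rpa2 (0.481) and Rpa1 (0.468).

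Subunits of other complexes were looser. The median was 0.126 over the 3 ORC pairs, 0.105 over the 10 RFC pairs and 0.0852 over the 6 GINS pairs. Within RPA, Rpa1 with Rpa2 was at 0.362 but Rpa2 with Rpa3 at 0.0587, and -0.0175 without the low marker cells. Rrm1 with Rrm2 was at 0.269. Cdt1 and its inhibitor Gmnn were at 0.143, and Cdc6 and Cdt1, which load the ring together, at -0.00754. Cdc6 was instead closest to Slbp (0.416) and Mcm4 (0.403), and Cdt1 was closest to Mcm3 (0.374) and Rpa2 (0.360). The lowest pair of all was Prim1 with Tyms, at -0.0416. Whether low levels held down the rho of the rarer genes was not tested.

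Licensing and synthesis genes covaried across the divide. The median over their pairs was 0.170, compared with 0.246 within licensing and 0.145 within synthesis. All but 1 pair of a licensing with a synthesis gene lay above 0, against 55.5% of all pairs of measured genes. Without the low marker cells the 3 medians were 0.131, 0.195 and 0.0929. When each gene was divided by its mean and the genes of a role were added up, the licensing sum and the synthesis sum of a cell had a rho of 0.602, and 0.565 without the low marker cells. Across alleles it was 0.394 (129 licensing with CAST synthesis) and 0.455 (the reverse). Within lanes it ran from 0.469 to 0.758.

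Against the sum of the other 38 genes, the rho of a member had a median of 0.324. It was 0.2 or higher in 33 of 39 members, against 10.3% of 8964 other genes and 30.4% of those with a mean of at least 150. Without the low marker cells this was 28 of 39, against 5.17% of other genes and 19.1% of those at 150 or more. Across alleles it was 21 of 39, against 2.38% and 13.0%. The highest were Mcm3 (0.616), Mcm6 (0.614), Mcm4 (0.609), Pcna (0.599), Mcm5 (0.580) and Mcm2 (0.575). By role, Cdt1 was the lowest licensing gene (0.274), Mcm10 the highest of helicase activation (0.431) and Gins2 the lowest of all 39 (0.114). The Gins2 value is that of its retained-intron leading row, and the other rows of Gins2 ran from 0.0135 to 0.266. Rpa3 was the lowest synthesis gene (0.178), Rrm2 (0.471) and Tyms (0.186) the ends of nucleotide supply, and Slbp was at 0.428 and Ung at 0.310. The 11 genes with an E2F word in their promoter window ranged from 0.209 to 0.616 and the 21 without from 0.178 to 0.599, so the groups overlapped.

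The replication sum of a cell, the sum over all 39 genes each divided by its mean, had a median of 40.0. The lowest cell was at 4.03 and the highest at 57.6, and the 10th and 90th percentiles were 31.1 and 46.6. Its coefficient of variation was 18.7%, and 14.6% without the low marker cells. The sum made from the 129 alleles and that from the CAST alleles had a rho of 0.569 over cells. With the number of transcript rows above 0 its rho was -0.0409, and with the scaled total -0.0445. Below 50% of the median lay 11 cells (2.63%; exact 95% interval 1.32% to 4.65%, counting error only), of which 8 were among the 19 low in pluripotency markers.

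In those 19 cells all 39 members had a lower mean than in the other 400, as did 55.6% of 8964 other genes and 75.1% of the 602 other genes at 150 or more per cell. The ratio of the means had a median of 0.527 over the members, from 0.317 in Ung to 0.936 in Rrm1. Its median was 0.931 over the other genes and 0.749 over those at 150 or more, where 5% of genes were below 0.264. The replication sum ran from 4.03 to 45.0 (median 23.9) in the 19 and from 14.4 to 57.6 (median 40.1) in the others, so the groups overlapped. Mcm5 had a median of 228 (3.76 to 556) in the 19 and 513 (120 to 995) in the others. The mitotic genes summed to 71.5 to 2866 in the 19 cells and to 646 to 3862 in the others. Fibroblast and trophectoderm markers were higher in some of these cells, as given above, and their part in the lower replication sum was not tested. Fewer replication transcripts and more transcripts of other genes cannot be told apart in values scaled to a common total.

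**Figure D5:**
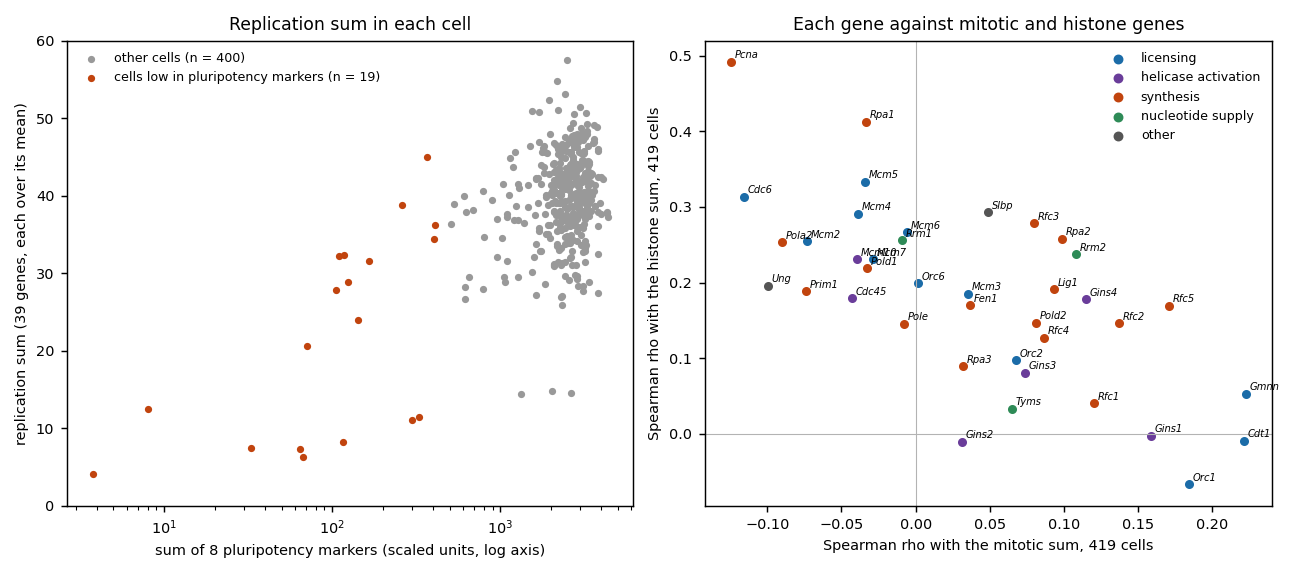
Left, the replication sum of each of 419 cells (39 genes, each over its mean, no unit) against its summed pluripotency markers (scaled units, log axis), with the 19 cells under 20% of the median in orange. Right, for each replication gene, Spearman's rho over 419 cells with the histone sum against that with the mitotic sum; Pcna lies at the upper left, and Cdt1, Gmnn and Orc1 at the lower right.

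The replication genes were next set beside other lists of the cell cycle. The sum of the other genes of S phase and the fork, of which 34 of 38 were measured, had a rho of 0.665 with the replication sum (0.635 without the low marker cells). Of the 34 genes, 21 had a rho of 0.2 or higher, from Tipin of the fork protection complex (0.510) to the origin subunit Orc4 (0.00569). The sum of G1/S regulators, 20 of 22 measured, had a rho of 0.413; E2f8 was highest (0.421) and Rb1 lowest (-0.0538). The sum of replication-dependent histone genes, 18 of 68 measured, had a rho of 0.391, from Hist1h1a (0.411) to Hist1h1c (0.0873). The sum of 22 mitotic genes had a rho of 0.0285, from Top2a (0.317) to Plk1 (-0.163).

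Single members differed in rho with the histone and mitotic sums, taken here for transcripts of S phase and of mitosis. Whether these sums track the phase of a cell was not tested. With the histone sum the members ran from -0.0670 to 0.492 (median 0.188), and with the mitotic sum from -0.125 to 0.223 (median 0.0350). Pcna had the highest rho with the histone sum (0.492, and 0.413 to 0.558 within lanes), followed by Rpa1 (0.413), Mcm5 (0.333), Cdc6 (0.313) and Slbp (0.293). The lowest were Orc1 (-0.0670), Gins2 (-0.0103), Cdt1 (-0.00914), Gins1 (-0.00270), Tyms (0.0331), Rfc1 (0.0401) and Gmnn (0.0531). Each of these genes crossed 0 between lanes, from -0.174 to 0.00926 in Orc1 and from -0.149 to 0.137 in Cdt1. Of these, Gmnn, Cdt1 and Orc1 had the highest rho with the mitotic sum, at 0.223 for Gmnn, 0.221 for Cdt1 and 0.185 for Orc1, above 0 in each of the 5 lanes. Pcna (-0.125) and Cdc6 (-0.116) were the lowest there, though their values crossed 0 between lanes. Without the low marker cells Cdt1 was at 0.183 and Orc1 at 0.134 with the mitotic sum, and Pcna at 0.461 with the histone sum. With the G1/S sum, Rrm2 (0.374), Cdc6 (0.362) and Pcna (0.319) were highest and Cdt1 lowest (0.0378). Licensing genes therefore lay at both ends of the histone order, with Cdc6 and Mcm5 near the clamp and Cdt1 and Orc1 far from it.

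Among the 4469 protein-coding genes outside the list with a mean of at least 20, the 10 most like the replication sum were Tipin (0.510), Uhrf1 (0.509), Chaf1a (0.495), Brca1 (0.494), Dtl (0.480), Nasp (0.458), Nup43 (0.447), Hells (0.436), Atad2 (0.427) and Ruvbl2 (0.426), measured by rho over 419 cells. Among them Uhrf1 recruits the maintenance DNA methyltransferase, Nasp is a histone chaperone, Brca1 acts in DNA repair, Chaf1a is a subunit of the chromatin assembly factor at the fork, and Dtl belongs to a ubiquitin ligase that acts on Cdt1. Every one of the 10 remained at 0.371 or higher without the low marker cells. The 5 lowest were Errfi1 (-0.354), Klf6 (-0.321), Trio (-0.318), Lgals1 (-0.314) and Soga1 (-0.299), and all 5 were at -0.245 or lower without the low marker cells.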

How the data were processed

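The authors deposited 2 tables, 1 per allele, with 117762 transcript rows and 1 column per cell. Their values were taken as a score: deposited whole numbers that are estimated allele values scaled to a nearly common total and rounded. Per the submitters' processing notes, Bowtie 1.1.2 and mm10 were used in an unstated role; which tool assigned alleles and scaled values was not given in the sources used here. Tests for counts of reads were not used. Every column had the title of 1 cell.

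Cells were scaled to the mean total. Each gene was represented by its most abundant row in GENCODE vM21. Genes were measured with a pooled value of at least 1000, at least 10% of cells above 0 and an autosomal position (11002 genes). Rows whose alleles differed by no more than an even split would give (statistic under 0.5) have no allele information. Noise needed a mean of at least 5 per allele and a share of 10% to 90%, and its running median spanned 201 genes; rho needed a mean of at least 5. Sequence shared with other genes was counted in 50-base words. All 39 members are named, with the extremes of each role, of each list and of all other genes. The members and lists were chosen with earlier results of these data known. No doublet caller was run. Scripts were tested on simulated data. Python 3.11.15, numpy 2.4.6, pandas 2.3.3, scipy 1.17.1 and matplotlib 3.10.9 were used. Alternatives varied the rows, scaling, minimum, correlation measure and cells, and left out each lane.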

Additional observations from a re-analysis of the deposited data

How the results depend on the processing

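Of the values of 14 results under the alternatives, 123 moved by less than the SD over the 5 lanes or, for the count of members outside 40% to 60%, stayed within 1.5 times, and 29 did not. With all annotated rows summed, the median level was 59.5 per kb, the licensing to synthesis ratio 1.65, the members outside 40% to 60% were 3, the median noise residual -0.62 and intrinsic noise 0.176; the median pairwise rho was 0.207, licensing with synthesis 0.221, members with the sum of the others 0.363 and the sum of the other fork genes 0.772. With protein-coding rows alone, a choice made after seeing the data, the level was 38.1 per kb and the ratio 2.32. With a minimum mean of 20 per allele, median intrinsic noise was 0.204 and shared noise 0.0335. Without genes that share sequence the residual was -0.50. Pearson's r of log2(value + 1) gave 0.296 for pairs, 0.367 for licensing with synthesis and 0.533 for members with the sum of the others, and log2(value + 10) gave 0.260, 0.317 and 0.489. Across alleles these were 0.0928, 0.109 and 0.205. The rho with the other fork genes was 0.718 with cells as deposited and 0.735 with raw sums. Without the 19 low marker cells, also chosen after seeing the data, shared noise was -0.0118, the pairwise rho 0.120 and the rho with the sum of the others 0.265. Leaving out 1 lane at a time, 69 of 70 values stayed within the same limits, and these are among the 123. Each such set keeps most of the cells, so its values could hardly move by the SD of single lanes. This count therefore says little about how stable the results are. The median 129 share ranged from 50.3% to 51.2% and members outside 40% to 60% from 4 to 7. No paired analysis was possible because the cells form a single group. With 1 sample, an unknown read depth and no control group, the values describe these cells only.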
